A study of Caenorhabditis elegans with 9 samples.

Results

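The genes described here encode proteins that write, read or maintain repressive and memory-bearing methylation on histone H3 in Caenorhabditis elegans. They are hpl-1, hpl-2, lin-61, lin-13, met-1, met-2, mes-2, mes-3, mes-4 and mes-6. Their probe sets were found by taking every probe set of the array whose platform annotation names exactly 1 gene, where that gene is on the list. This gave 18 of 22625 probe sets, which stand for 9 of the 10 genes. The probe set annotated to mes-6 is also annotated to another gene, so mes-6 has no value here, and for the same reason a probe set annotated to hpl-2 and 3 other genes was not used. There are 2 probe sets each for hpl-1, lin-13, met-2, mes-4 and mes-3, while hpl-2 has 5 and lin-61, met-1 and mes-2 have 1 each.

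Heterochromatin in the worm is marked by methylation of histone H3 at lysine 9, which MET-2 places and the heterochromatin protein 1 (HP1) homologues HPL-1 and HPL-2 and the malignant brain tumour (MBT) repeat protein LIN-61 bind. LIN-13, a zinc finger protein, brings HPL-2 to chromatin, and lin-13, hpl-2, lin-61 and met-2 belong to the class B synthetic multivulva genes, which keep vulval and germline genes off where they should be silent. The MES proteins are named for maternal-effect sterility: mutants with a heterozygous mother are fertile, and their offspring are sterile. MES-2, MES-3 and MES-6 form the worm's Polycomb repressive complex, which methylates H3 at lysine 27, while MES-4 methylates H3 at lysine 36 on genes that were active in the germ line of the parent. SUMO, a small protein modifier attached to many chromatin proteins, is the product whose ectopic expression the study examined.

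RNA from whole animals, labelled as first-stage (L1) larvae, was measured on 9 expression arrays in 3 groups of 3 biological replicate populations. N2, the wild-type laboratory strain, carried no transgene. The aex-3 SUMO group was strain JS62, which carries aex-3::his-SUMO-1, His-tagged SUMO-1 driven by the promoter of the neuronal gene aex-3. The myo-4 SUMO group was strain JS63, which carries myo-4::his-SUMO-1, driven by the promoter of the body wall muscle myosin gene myo-4 (unc-54). Each transgene was represented by 1 strain, and details of the constructs are not given in the sources used here. All groups were fed OP50 bacteria and synchronised with bleach. Values are array signal as deposited, changes are log2 fold changes ± SE from limma, a linear model with moderated variances, and a probe set was called changed when its Benjamini-Hochberg adjusted p was below 0.05.

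The transcript of smo-1, the SUMO gene, was called higher in both lines, by 0.69 ± 0.13 in aex-3 SUMO (adjusted p = 0.00117) and by 0.59 ± 0.13 in myo-4 SUMO (adjusted p = 0.00318, limma). Adult transcripts were bright on arrays labelled L1. The median rank of 25 sperm genes lay at percentiles 99.0 to 99.4 of each array and that of 5 yolk genes at 98.7 to 99.7, and every marker measured was above the 40th percentile on at least 1 array. The summed signal of 21 oocyte and adult germline markers ranged over 7231 to 12579 on the N2 arrays, against 15568 to 16677 for aex-3 SUMO and 15714 to 16989 for myo-4 SUMO, and 19 of the 21 were called higher in each line, with 0 lower. The summed signal of 8 neuronal markers ranged over 2175 to 2379 on the N2 arrays, against 1289 to 1448 for aex-3 SUMO and 1393 to 1518 for myo-4 SUMO, and 8 and 7 of the 8 were called lower. Called lower in aex-3 SUMO and myo-4 SUMO were also 5 and 4 of 6 body wall muscle markers, 4 and 4 of 6 intestinal markers, and 4 and 3 of 6 hypodermal markers, while 4 and 3 of the 5 yolk genes and 0 and 1 of the intestinal markers were called higher. Of the 25 sperm markers 4 and 5 were called lower, a smaller share than that of all genes called lower, 24.7% and 21.1%. Quantile normalization gave 2 higher and 0 lower in aex-3 SUMO and 0 higher and 1 lower in myo-4 SUMO, median centring gave 1 higher and 0 higher with 0 lower in both, and without N2 replicate 1 none was called. Array medians also moved with the groups, at 27.6 to 28.6 for N2 against 23.2 to 25.7 for the SUMO lines. N2 replicate 1 stood nearest the transgenic arrays in the germline sum, with 12579 against 9300 and 7231 on the other N2 arrays. In the sperm sum it stood furthest from them, with 121220 against 93749 and 82748 on the other N2 arrays. The sperm sums were 77049 to 85502 for aex-3 SUMO and 68290 to 88114 for myo-4 SUMO. N2 replicate 1 was also the highest array in the hypodermal sum, at 10848. In whole animals a change in the number of cells of a type and a change of RNA per cell cannot be told apart.

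Most of the heterochromatin and MES genes were higher in animals carrying either SUMO transgene than in N2. In aex-3 SUMO, 11 of the 18 probe sets were called higher and 0 lower, at a median change of 0.57. In myo-4 SUMO, 10 of the 18 were called higher and 0 lower, at a median of 0.41. Called higher in both comparisons were 10 probe sets, from the 6 genes hpl-2, lin-61, lin-13, met-2, mes-4 and mes-2. Over all 14204 probe sets bright enough to test, 24.1% were called higher and 24% lower in aex-3 SUMO (48.1% in all), and 24% higher and 20.3% lower in myo-4 SUMO (44.4% in all). The median changes of all probe sets were -0.04 and 0.0039. Brighter probe sets were called higher more often. With a filter at the 60th percentile, 3208 of 9625 were called higher in aex-3 SUMO and 3226 in myo-4 SUMO. Their median changes were 0.098 and 0.121. Of the 13 member probe sets that passed this filter, 11 were called higher in each line. Both comparisons use the same 3 N2 arrays.

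With 1 probe set per gene, that with the highest mean signal, 5 of 9 genes were called higher and 0 lower in each comparison, with medians of 0.55 and 0.46. Over all 10766 genes treated alike, 24.6% were called higher and 24.7% lower in aex-3 SUMO, and 24.2% higher and 21.1% lower in myo-4 SUMO. The 3 arrays of aex-3 SUMO lay above all 3 N2 arrays for 11 of the 18 member probe sets, and the arrays of myo-4 SUMO did so for 14. Over all probe sets tested, 27.4% and 27% lay above N2 in this way and 29% and 25.3% lay below it, as no member did. Every member probe set was bright enough to test, and 17 of the 18 passed the 40th percentile on each of the 9 arrays.

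**Figure D1:**
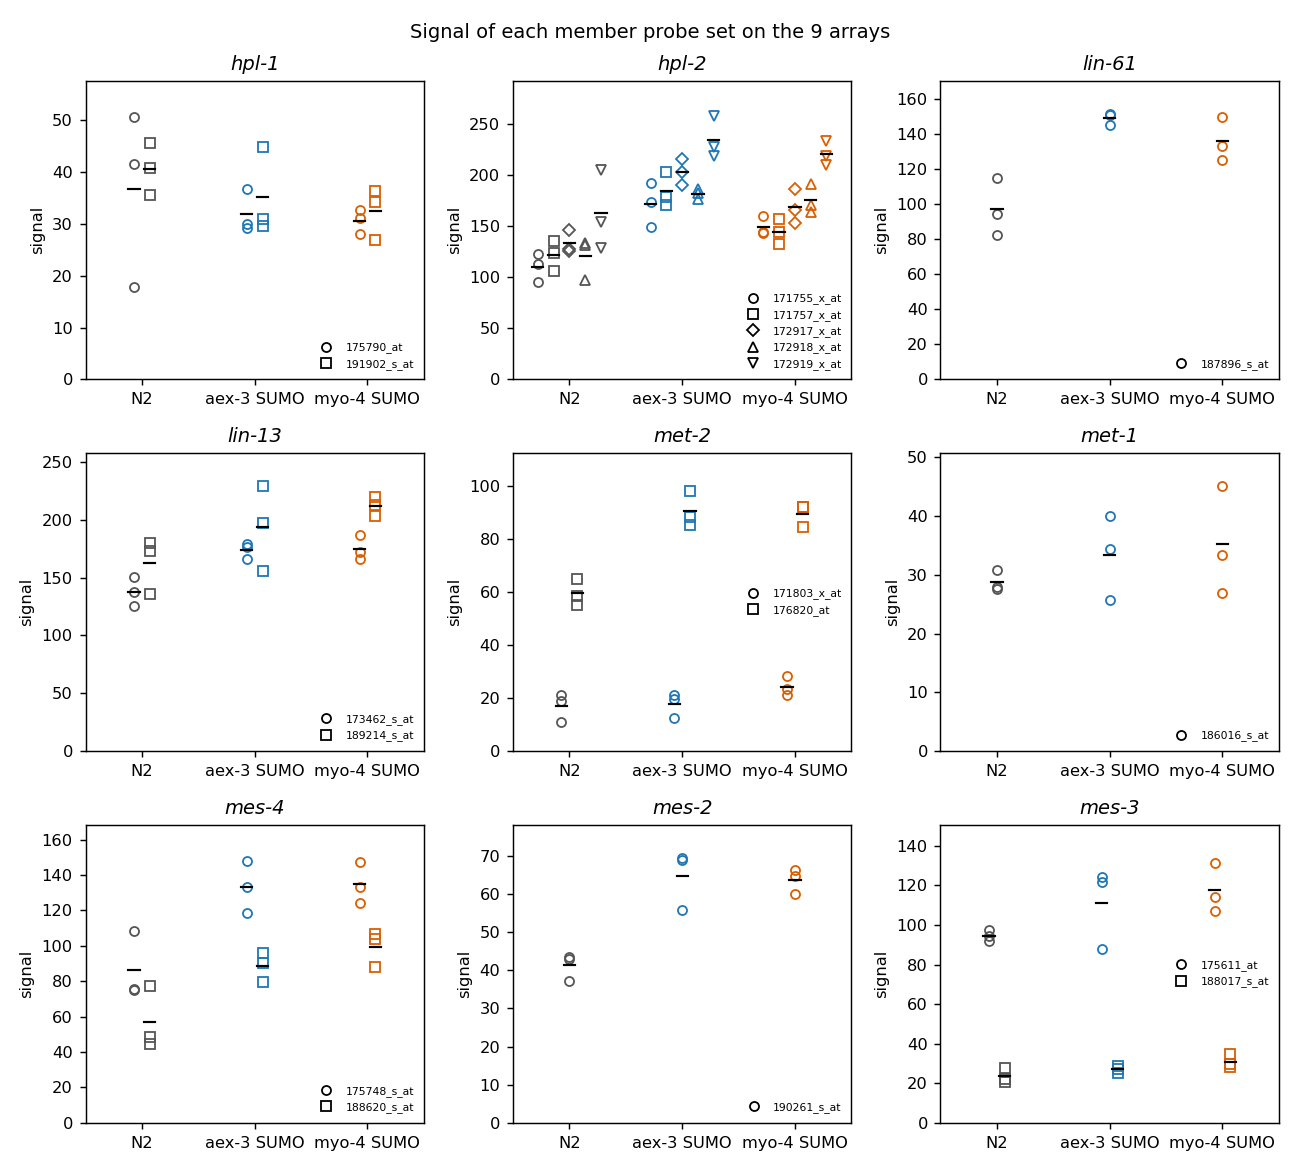
Signal (vertical axis, linear, from 0) of the 18 member probe sets on the 9 arrays, 1 panel per gene, with arrays grouped as N2, aex-3 SUMO and myo-4 SUMO. Each symbol is an array, symbol shapes stand for probe sets and bars for group means. The transgenic arrays of mes-2, mes-4, lin-61 and met-2 probe set 176820_at lie above all N2 arrays, whereas those of hpl-1 and met-1 overlap with N2.

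Of the HP1 genes, hpl-2 was called higher and hpl-1 was not. On hpl-2 probe set 172919_x_at the N2 arrays gave 205, 154 and 128, the aex-3 SUMO arrays 227, 219 and 257, and the myo-4 SUMO arrays 219, 233 and 209. No transgenic array was as low as any N2 array, although N2 replicate 1 came close to them. The change was 0.55 ± 0.15 in aex-3 SUMO (adjusted p = 0.0108) and 0.46 ± 0.15 in myo-4 SUMO (adjusted p = 0.0272, limma).

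Probe set 172918_x_at, for the same gene, read 134, 132 and 97.2 in N2, 177, 182 and 186 in aex-3 SUMO and 191, 171 and 164 in myo-4 SUMO. It rose by 0.60 ± 0.13 and 0.54 ± 0.13, calls that held under all 16 alternative settings in both comparisons. All 5 hpl-2 probe sets were called higher in aex-3 SUMO, within the narrow span of 0.55 to 0.63.

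In myo-4 SUMO 4 of the 5 hpl-2 probe sets were called higher, at 0.34 to 0.54. The fifth, 171757_x_at, read 124, 106 and 135 in N2, 171, 178 and 203 in aex-3 SUMO and 157, 144 and 132 in myo-4 SUMO. Its myo-4 SUMO arrays overlap with N2, at a change of 0.25 ± 0.13 (adjusted p = 0.132), and all 3 lie below the aex-3 SUMO arrays. Probe set 172917_x_at read 146, 125 and 128 in N2, 203, 191 and 216 in aex-3 SUMO and 187, 166 and 153 in myo-4 SUMO, so that here too the myo-4 SUMO arrays lie below those of aex-3 SUMO.

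On the remaining probe set, 171755_x_at, N2 read 112, 94.9 and 123, aex-3 SUMO 174, 149 and 192, and myo-4 SUMO 160, 144 and 144, so both lines were above N2. The hpl-2 calls in myo-4 SUMO were less firm than in aex-3 SUMO. They ended under 7 of 16 alternatives for 172917_x_at, under 5 for 172919_x_at and under 3 for 171755_x_at, against 1 lost call among the 5 probe sets in aex-3 SUMO (172919_x_at without aex-3 SUMO replicate 3, 0.48, adjusted p = 0.0515). Names ending in _x_at mark probe sets whose probes may also match other sequences. All 5 target 1 gene and share the RNA of each array, so they are not independent measurements.

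No probe set of hpl-1, which encodes the other HP1 homologue, was called in either comparison. Probe set 191902_s_at read 40.9, 45.6 and 35.6 in N2, 44.9, 29.6 and 30.9 in aex-3 SUMO and 26.8, 34.3 and 36.4 in myo-4 SUMO, and the groups overlap. Its changes were -0.22 ± 0.19 (adjusted p = 0.353) and -0.31 ± 0.19 (adjusted p = 0.192, limma), with 95% intervals of -0.63 to 0.19 and -0.72 to 0.09. On probe set 175790_at the N2 arrays gave 17.9, 41.5 and 50.7, with replicate 1 far below the others. The transgenic arrays lay within that span, at 36.7, 29.2 and 29.9 in aex-3 SUMO and 28.0, 32.6 and 31.1 in myo-4 SUMO.

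The result for 175790_at rests on N2 replicate 1. With it, the changes were -0.08 ± 0.29 and -0.14 ± 0.29, and without it this hpl-1 probe set was called lower, by -0.51 in aex-3 SUMO (adjusted p = 0.0239) and by -0.56 in myo-4 SUMO (adjusted p = 0.0157, limma). On the same arrays, with N2 replicate 1 left out, 191902_s_at was not called. The difference between hpl-1 and hpl-2 was not tested.

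**Figure D2:**
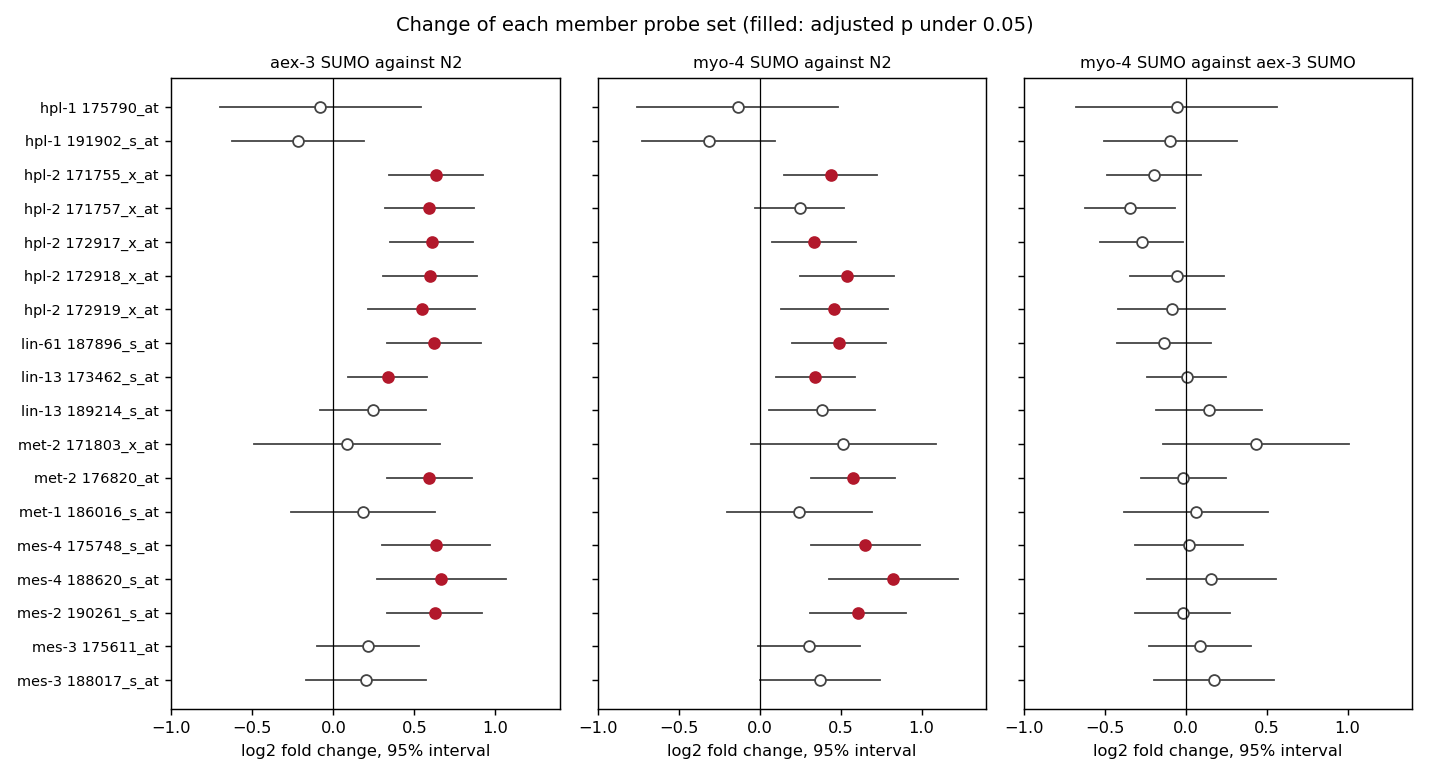
Log2 fold changes (points, horizontal axis) with 95% intervals (lines) of the 18 member probe sets in the 3 comparisons, with filled points for an adjusted p below 0.05. The filled points of both comparisons with N2 lie to the right of 0, and no point is filled between the lines.

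Among the proteins that read methylated lysine 9 or recruit HPL-2, lin-61 rose in both lines. Its probe set read 115, 94.2 and 82.2 in N2, 151, 145 and 151 in aex-3 SUMO and 150, 133 and 125 in myo-4 SUMO. Every transgenic array was above every N2 array, and the N2 arrays stood in the same order as their oocyte and germline marker sums. The change was 0.62 ± 0.13 in aex-3 SUMO (adjusted p = 0.00245) and 0.49 ± 0.13 in myo-4 SUMO (adjusted p = 0.0106, limma). The call in myo-4 SUMO ended in 1 alternative, without myo-4 SUMO replicate 1 (0.42, adjusted p = 0.0533).

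For lin-13, probe set 173462_s_at read 125, 151 and 137 in N2, 166, 177 and 179 in aex-3 SUMO and 187, 172 and 166 in myo-4 SUMO, without overlap with N2. It rose by a smaller amount than lin-61, 0.34 ± 0.11 in each line (adjusted p = 0.0261 in both, limma). Those calls ended under quantile normalization, at 0.20 (adjusted p = 0.176) and 0.21 (adjusted p = 0.162), and in 2 further settings per comparison that left out a transgenic array.

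The second lin-13 probe set, 189214_s_at, gave 173, 180 and 136 in N2, 197, 156 and 229 in aex-3 SUMO and 204, 212 and 220 in myo-4 SUMO. Its aex-3 SUMO arrays spread across the N2 range, whereas its myo-4 SUMO arrays were all above it. The changes were 0.24 ± 0.15 (adjusted p = 0.196) and 0.39 ± 0.15 (adjusted p = 0.0523), and the latter passed the threshold in 7 of 16 alternatives. In both lines the call for lin-13 thus depends on the probe set.

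The lysine 9 methyltransferase gene met-2 rose in both lines by its brighter probe set. On 176820_at the N2 arrays gave 58.7, 64.9 and 54.9, the aex-3 SUMO arrays 85.2, 88.2 and 97.9, and the myo-4 SUMO arrays 92.1, 92.0 and 84.4. The groups are separated by a wide gap, with fold changes of 1.51 and 1.49. In log2 units these were 0.59 ± 0.12 (adjusted p = 0.00173) and 0.58 ± 0.12 (adjusted p = 0.00226, limma), and both calls held under all 16 alternatives.

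The other met-2 probe set, 171803_x_at, was dim, above the 40th percentile on 7 of the 9 arrays. It read 11.01, 18.7 and 21.1 in N2, 19.8, 21.3 and 12.5 in aex-3 SUMO and 28.3, 21.2 and 23.5 in myo-4 SUMO. Only the myo-4 SUMO arrays lay above N2, narrowly, and neither change was called, at 0.08 ± 0.26 (adjusted p = 0.815) and 0.52 ± 0.26 (adjusted p = 0.129, limma). The latter passed the threshold under quantile normalization (0.67, adjusted p = 0.0451) and median centring (0.66, adjusted p = 0.0445).

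Of the lysine 36 methyltransferase genes, mes-4 was called higher and met-1 was not. For mes-4, probe set 188620_s_at read 77.3, 48.5 and 44.5 in N2, 79.7, 96.1 and 90.4 in aex-3 SUMO and 103.7, 106 and 87.9 in myo-4 SUMO. It had the highest change of all 18 members in both comparisons, 0.67 ± 0.18 in aex-3 SUMO (adjusted p = 0.00983) and 0.83 ± 0.18 in myo-4 SUMO (adjusted p = 0.00325, limma). N2 replicate 1 lay just under the lowest aex-3 SUMO array, and the 3 N2 arrays again stood in the order of their germline marker sums. The N2 arrays did not stand in that order for lin-13 probe set 173462_s_at or met-2 probe set 176820_at. Nor did they for the hpl-2 probe sets 171755_x_at, 171757_x_at and 172917_x_at, but they did for hpl-2 probe sets 172918_x_at and 172919_x_at. The order of the 3 N2 arrays was not tested.

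Probe set 175748_s_at, also for mes-4, gave 109, 75.3 and 74.9 in N2, 133, 119 and 148 in aex-3 SUMO and 148, 124 and 133 in myo-4 SUMO. It rose by 0.63 ± 0.15 and 0.65 ± 0.15 (adjusted p = 0.00515 and 0.00475, limma), and here too N2 replicate 1 was the highest of the 3 N2 arrays. Without N2 replicate 1 the changes of 188620_s_at were 0.91 and 1.06 and those of 175748_s_at 0.81 and 0.83, and all 4 mes-4 calls held under all 16 alternatives.

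The single probe set of met-1, a Set2-type lysine 36 methyltransferase gene, read 27.7, 28.0 and 30.8 in N2, 34.4, 25.7 and 40.01 in aex-3 SUMO and 33.4, 26.99 and 45.2 in myo-4 SUMO. The transgenic arrays lay on both sides of N2. The changes were 0.18 ± 0.21 (adjusted p = 0.484) and 0.25 ± 0.21 (adjusted p = 0.348), and met-1 was not called under any of its 15 alternatives. The 95% intervals of met-1 were -0.26 to 0.63 and -0.20 to 0.69.

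Of the Polycomb repressive complex, mes-2, which encodes the Enhancer of zeste homologue and catalytic subunit, rose in both lines. Its probe set read 37.2, 43.5 and 43.0 in N2, 69.4, 68.9 and 55.7 in aex-3 SUMO and 64.6, 59.9 and 66.2 in myo-4 SUMO. The lowest transgenic array was well above the highest N2 array, and unlike lin-61 and mes-4, mes-2 was lowest on N2 replicate 1. The fold changes were 1.54 and 1.52, or 0.63 ± 0.14 (adjusted p = 0.00255) and 0.61 ± 0.14 (adjusted p = 0.00338, limma), and both calls held under all 16 alternatives.

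For mes-3, which encodes another subunit of that complex, neither probe set was called. Probe set 175611_at gave 97.2, 92.1 and 94.5 in N2, 124, 122 and 87.7 in aex-3 SUMO and 114, 131 and 107 in myo-4 SUMO. The aex-3 SUMO arrays fell on both sides of a tight N2 group, while the myo-4 SUMO arrays were all above it. The changes of 175611_at were 0.21 ± 0.15 (adjusted p = 0.237) and 0.30 ± 0.15 (adjusted p = 0.106).

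The second mes-3 probe set, 188017_s_at, gave 20.6, 22.4 and 27.8 in N2, 25.5, 28.7 and 27.4 in aex-3 SUMO and 34.8, 29.96 and 28.1 in myo-4 SUMO. The myo-4 SUMO arrays lie above N2 and the aex-3 SUMO arrays overlap with it, at changes of 0.20 ± 0.17 (adjusted p = 0.344) and 0.38 ± 0.17 (adjusted p = 0.0916, limma), neither called. Replicate 3 of aex-3 SUMO decided the call of 175611_at, which rose by 0.38 (adjusted p = 0.0490) without it. Median centring also brought mes-3 probe sets past the threshold, 175611_at in both comparisons and 188017_s_at in myo-4 SUMO. In myo-4 SUMO 188017_s_at passed under quantile normalization too (0.52, adjusted p = 0.0248), and without N2 replicate 3 (0.49, adjusted p = 0.0456, limma).

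Between the 2 transgenic lines none of the 18 member probe sets was called in the limma test, where 34 of 14204 probe sets (0.239%) were, 0.183% higher and 0.0563% lower in myo-4 SUMO. By gene the background was 0.214% higher and 0.065% lower, and 1247 probe sets had an unadjusted p below 0.05. At an unadjusted p below 0.05 there were 2 members, the hpl-2 probe sets 171757_x_at (-0.35 ± 0.13, adjusted p = 0.425) and 172917_x_at (-0.27 ± 0.12, adjusted p = 0.545). These were also the 2 probe sets whose lines did not overlap, with myo-4 SUMO below aex-3 SUMO, and 8.24% of all probe sets lay that way and 12.6% the other way. The other hpl-2 probe sets differed between the lines by -0.05 to -0.20.

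For lin-61, lin-13, mes-2, mes-4, mes-3 and met-2 probe set 176820_at, the 95% intervals of the difference ran from as low as -0.42 to as high as 0.56. For mes-2 the interval was -0.31 to 0.28, and for met-2 probe set 176820_at -0.27 to 0.25. The interval of met-2 probe set 171803_x_at reached furthest above 0, at -0.14 to 1.01, and that of hpl-1 probe set 175790_at was -0.67 to 0.56. The intervals of the hpl-2 probe sets 171757_x_at and 172917_x_at lay below 0, at -0.62 to -0.07 and -0.53 to -0.01, without adjustment for multiple tests. Differences between the lines within these intervals are not excluded with 3 arrays per line. Each promoter was represented by 1 strain, so a difference of promoter and one of strain cannot be told apart.

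Germline transcripts were higher in the same lines. With 1 probe set per gene, the median change of the 21 oocyte and adult germline markers was 0.84 in aex-3 SUMO and 0.89 in myo-4 SUMO. That of the 9 member genes, treated alike, was 0.55 and 0.46. The yolk receptor gene rme-2, for example, rose by 1.19 ± 0.12 and 1.22 ± 0.12 (adjusted p = 3.32e-05 and 2.44e-05, limma). The 8 neuronal markers fell at medians of -0.77 and -0.66. No marker of the germline list was dim on all arrays, and the part of these transcripts in the members' changes was not tested.

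**Figure D3:**
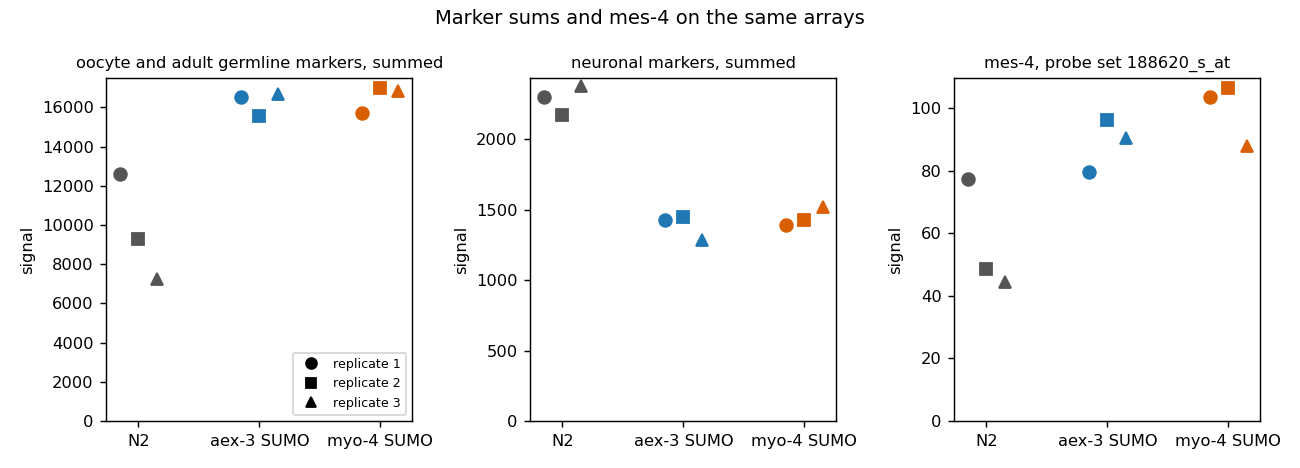
Summed signal of 21 oocyte and adult germline markers (left), summed signal of 8 neuronal markers (middle) and signal of mes-4 probe set 188620_s_at (right) on the 9 arrays, with groups on the horizontal axis and symbols for the replicate number. The germline sum and mes-4 are highest in the transgenic lines and, among the N2 arrays, on replicate 1, while the neuronal sum is highest in N2. Not all members share the order of the N2 arrays, and mes-2, not drawn, was lowest on N2 replicate 1.

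Other genes of histone methylation and heterochromatin were taken from a list of 61, of which 54 had a probe set of their own and 42 were bright enough to test. In aex-3 SUMO 24 of the 42 were called higher and 3 lower, at a median of 0.43, and in myo-4 SUMO 27 higher and 2 lower, at a median of 0.47. Over all genes 24.6% were called higher and 24.7% lower in aex-3 SUMO, and 24.2% and 21.1% in myo-4 SUMO. The 12 left out as dim give no count. Median centring gave 34 higher and 2 lower in aex-3 SUMO, and 31 higher and 1 lower in myo-4 SUMO. Calls over all 14204 probe sets shifted too. In aex-3 SUMO those higher went from 3423 to 5129 and those lower from 3410 to 2049. In myo-4 SUMO they went from 3412 to 4616 and from 2888 to 1980.

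Chromodomain proteins and factors that hold heterochromatin at the nuclear envelope were called higher for 9 of 10 genes and lower for 1 in each line. The inner nuclear membrane protein gene emr-1, for emerin, rose from 144 ± 11.02 (SD, n = 3) to 303 ± 40.3 with aex-3 SUMO and 319 ± 16.1 with myo-4 SUMO, changes of 1.06 ± 0.12 and 1.14 ± 0.12. The gene cec-4, whose product anchors chromatin methylated at lysine 9 to the envelope, rose by 0.76 and 0.68, and cec-5 rose by 0.65 and 0.61. The lamin gene lmn-1 rose by 0.42 and 0.62, although its aex-3 SUMO call ended without aex-3 SUMO replicate 1 (highest adjusted p = 0.0512). The chromodomain gene cec-1 ran the other way, falling by 0.83 and 0.81 in log2 units.

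Of 13 further methyltransferase genes, 7 were called higher and 1 lower in aex-3 SUMO, and 8 and 1 in myo-4 SUMO. The putative lysine 9 methyltransferase gene set-32 rose by 0.95 ± 0.11 and 0.85 ± 0.11 (adjusted p = 6.7e-05 and 0.000141, limma), and set-17 rose by 0.86 and 0.65. The arginine methyltransferase gene prmt-5 rose by 0.69 and 0.57, and set-31 by 0.75 and 0.78. The exception was set-30, which fell from 151 to 88.9 with aex-3 SUMO (-0.74, adjusted p = 0.00111) and 115 with myo-4 SUMO (-0.38, adjusted p = 0.0411). That set-30 call in myo-4 SUMO ended in 10 alternatives, median centring among them.

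Of the 9 demethylase genes, 2 were called higher and 1 lower in aex-3 SUMO, a share near that of all genes called higher (24.6%), and 4 higher and 0 lower in myo-4 SUMO, against 24.2% of all genes. Median centring raised the aex-3 SUMO count of demethylase genes called higher to 7, while quantile normalization gave 4, as did leaving out N2 replicate 1. Over all 14204 probe sets, 3423 were called higher in aex-3 SUMO as reported and 5129 with median centring. Quantile normalization gave 3444, and leaving out N2 replicate 1 gave 3758. The demethylase gene jmjd-2 rose by 0.63 ± 0.12 and 0.73 ± 0.12, and spr-5, a lysine-specific demethylase gene of the LSD1 type, by 0.37 and 0.45, although the spr-5 calls ended in 9 and 3 alternatives. The demethylase gene jmjd-3.1 fell in aex-3 SUMO (-0.71, adjusted p = 0.0263), a call that ended under both quantile normalization and median centring. In myo-4 SUMO lsd-1 (0.47) and jmjd-1.2 (0.41) were also called higher, each in a call that ended in 10 alternatives.

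Subunits that serve lysine 4 methylation were called higher for 3 of 5 genes in each line, namely wdr-5.1 (0.53 and 0.44), cfp-1 (0.51 and 0.49) and hcf-1 (0.43 and 0.59). The myo-4 SUMO calls of wdr-5.1 and cfp-1 each ended in 4 alternatives that left out an array. The aex-3 SUMO call of hcf-1 ended under quantile normalization and without aex-3 SUMO replicate 1 or 3. Among the nuclear RNA interference factors, which direct lysine 9 methylation to targets of small RNAs, 3 of 5 were called higher in each line. The germline Argonaute gene hrde-1 rose from 92.6 to 194 and 208, changes of 1.08 ± 0.18 and 1.19 ± 0.18 (adjusted p = 0.000481 and 0.000289, limma). The genes nrde-4 (0.60 and 0.63) and nrde-2 (0.43 and 0.46) rose as well, and the aex-3 SUMO call of nrde-2 ended under quantile normalization.

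Genes known as targets of these repressors did not all move the same way. The class B synthetic multivulva proteins keep P granule genes off in somatic cells, and of these glh-1 rose from 455 to 681 and 781 (0.58 ± 0.12 and 0.78 ± 0.12, adjusted p = 0.00187 and 0.00032) and pgl-3 from 114 to 184 and 192 (0.72 ± 0.18 and 0.78 ± 0.18). For pgl-1 the change was called in myo-4 SUMO only, at 0.42 ± 0.14 (adjusted p = 0.0301, lost in 6 alternatives) against 0.35 ± 0.14 in aex-3 SUMO (adjusted p = 0.0590), and the difference between the lines was 0.07 (adjusted p = 0.934, limma). The vulval inducer gene lin-3, an epidermal growth factor repressed by these proteins, rose from 59.4 to 85.5 and 88.7 (0.52 ± 0.13 and 0.57 ± 0.13, adjusted p = 0.00575 and 0.00351). For the germline genes glh-1, pgl-3 and pgl-1, transcripts of germ cells and of somatic cells cannot be told apart in whole animals. The oocyte and adult germline markers rose at medians of 0.84 and 0.89. Repression of the targets was not tested.

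The Hox genes are restrained by the MES Polycomb complex. Of these, mab-5 fell from 42.5 ± 5.40 (SD, n = 3) to 22.7 ± 2.89 with aex-3 SUMO (-0.86, SE 0.165, adjusted p = 0.00117) and read 33.9 ± 3.53 with myo-4 SUMO (-0.31, SE 0.165, adjusted p = 0.141). The difference in mab-5 between the lines was 0.55, SE 0.165 (adjusted p = 0.263, limma). The changes of lin-39 were -0.24 ± 0.22 and -0.06 ± 0.22, neither called, and they ran from -0.44 to 0.01 and from -0.26 to 0.10 over the alternatives. The third Hox gene, egl-5, was too dim to test.

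Likeness to the members was measured as the root mean square difference over the 9 arrays between log2 profiles, each centred on its own mean. The mean profile of mes-2 and mes-3 was most like those of cblc-1 (0.0745), sorf-1 (0.0798), drr-2 (0.0812), sec-24.1 (0.0819) and drap-1 (0.0862). The profile of hpl-2 probe set 172919_x_at was most like those of taf-10 (0.0517), mppb-1 (0.0550), tpp-2 (0.0556), ZK813.1 (0.0588) and ran-1 (0.0591). Among the members, hpl-2 probe set 172918_x_at and lin-61 were closest, at 0.0797, nearer than any pair of the 5 hpl-2 probe sets to each other (0.105 to 0.240). The probe sets of hpl-1 and of met-2 were the least alike of those that share a gene, at 0.402 and 0.400.

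Centring each array on its median raised the median change of all 14204 probe sets from -0.04 to 0.18 in aex-3 SUMO and from 0.0039 to 0.15 in myo-4 SUMO, and that of the members to 0.79 and 0.56. With the deposited scaling 16 of the 18 members were above the median of all probe sets in each comparison, and with quantile normalization 17 and 16 were. The share of calls that were higher, over all probe sets, was 50.1% in aex-3 SUMO and 54.2% in myo-4 SUMO with the deposited scaling, and 71.5% and 70% with median centring. Without myo-4 SUMO replicate 1, 5 members were called higher in that line, against 10 with it. Over all 14204 probe sets, 2531 were then called higher and 2248 lower in myo-4 SUMO, against 3412 and 2888 with it.

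**Figure D4:**
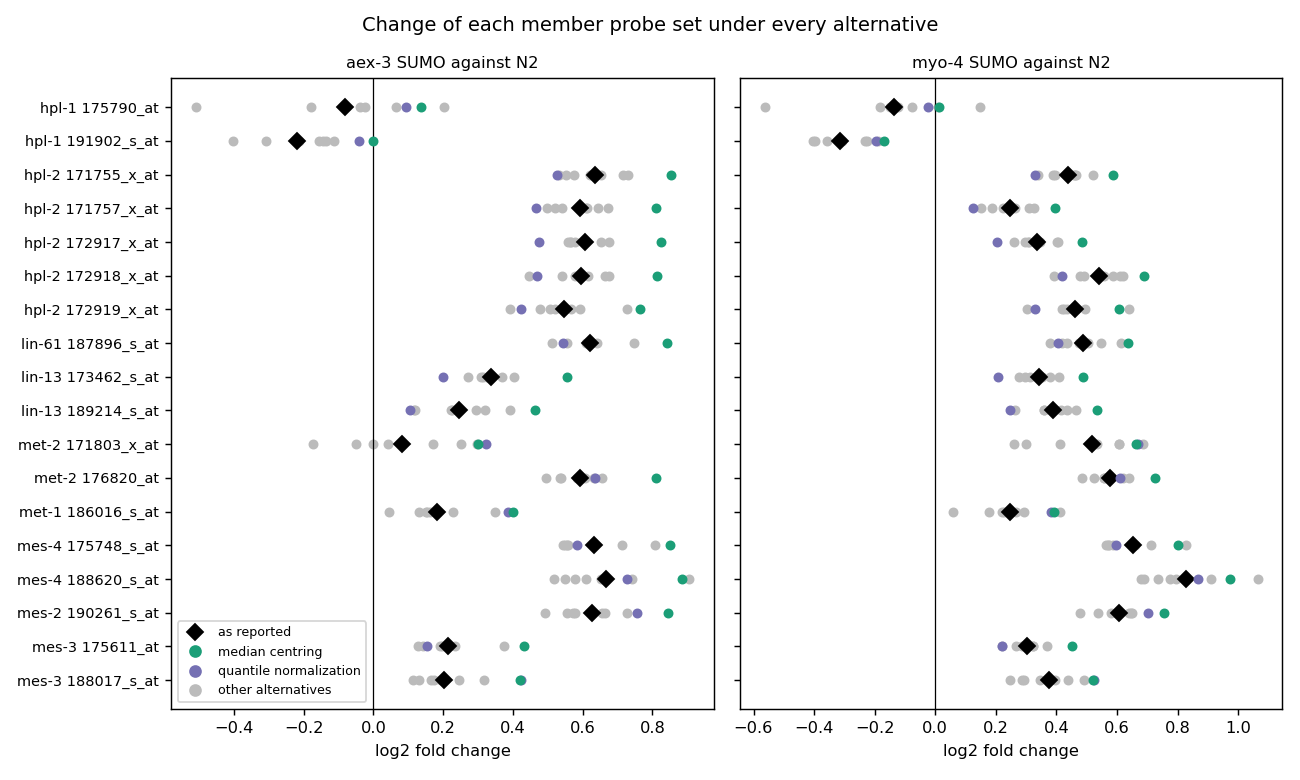
Log2 fold change (horizontal axis) of the 18 member probe sets against N2 as reported (diamonds), under median centring and quantile normalization (coloured circles) and under the other alternatives (grey circles). The points of mes-4, mes-2, met-2 probe set 176820_at, lin-61 and hpl-2 stay to the right of 0, while those of hpl-1 probe set 175790_at fall on both sides.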

How the data were processed

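Per the labels' protocols, total RNA of whole larvae was labelled with biotin as cRNA by the standard Affymetrix protocol. The authors deposited intensity on a linear scale, and the submitters' processing notes name GCOS without a version. The 2% trimmed means of the 9 arrays were 100.03 to 100.04, so the values were used as scaled by the authors. The number of arrays limits the precision, and p-values measure the spread between replicate populations.

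After 77 control probe sets were set aside, values were transformed as log2(signal + 1.623), the median of the arrays' 10th percentiles, so changes of dim genes are understated. Probe sets above the 40th percentile on at least 3 of 9 arrays (14204 of 22548) entered limma 3.58.1 in R 4.3.3, with an intensity trend, 6 residual and 6.88 prior degrees of freedom, two-sided tests and Benjamini-Hochberg adjustment over all 14204 per comparison. The fit was also run on simulated data with far fewer changed probe sets than were called here. That run does not measure its error rates on these arrays. Genes were named through the deposited platform annotation: 20766 probe sets have 1 gene, 887 several and 895 none, and no sequence was used. Same-numbered replicates of different groups deviated with correlations of -0.194 to 0.0295, so numbers were not taken as pairs.

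The members, lists and rules were chosen with earlier results of these data known. Named are all members, all listed targets and, per class and comparison, up to 4 called genes of the wider list with the smallest p. The profile of the Polycomb complex was taken from mes-2 and mes-3 alone. Alternatives were quantile normalization, median centring, a 60th percentile filter or none, a pseudocount of 16, no intensity trend, the replicate number as a block, and each array left out.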

Additional observations from a re-analysis of the deposited data

How the results depend on the processing

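Over the alternatives, the count of members called in aex-3 SUMO against N2 was 10 to 13 of those tested, and 10 to 12 with an array left out. In myo-4 SUMO it was 5 to 12 with an array left out, lowest without myo-4 SUMO replicate 1, and 8 under quantile normalization against 15 under median centring. Of all 14204 probe sets, 5214 to 7376 were called in aex-3 SUMO with an array left out, against 6833 as reported. In myo-4 SUMO the range was 4779 to 6849, against 6300 as reported. Quantile normalization called 3281 of them higher in myo-4 SUMO and 2565 lower, and median centring 4616 and 1980. Between the lines no member was called under any alternative. The number of all probe sets called there was 21 without the intensity trend and 13 to 92 with an array left out (92 without N2 replicate 1, 84 without N2 replicate 3, 18 without aex-3 SUMO replicate 1, myo-4 SUMO replicate 1 or myo-4 SUMO replicate 3, and 13 without myo-4 SUMO replicate 2). With the replicate block the member counts were 11, 10 and 0, the same as without it. Each pair of a member probe set and an alternative was also counted, 283 pairs per comparison, so 1 probe set can count several times. In aex-3 SUMO a call ended in 4 pairs and was made in 4, and in myo-4 SUMO in 19 and 15. The filter at the 60th percentile kept 13 of the 18 members.

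All changes that crossed 0 under these alternatives were of member probe sets or comparisons not called as reported. For hpl-1 probe set 175790_at the change became 0.0934 under quantile normalization and 0.138 under median centring in aex-3 SUMO, and 0.0111 under median centring in myo-4 SUMO. With an array left out it ran from -0.51 to 0.20 and from -0.56 to 0.15. With an array left out the change of met-2 probe set 171803_x_at in aex-3 SUMO ran from -0.17 to 0.30, and it was 0.32 under quantile normalization. Between the lines met-1 became -0.00126 under quantile normalization and -0.00645 under median centring, while lin-13 probe set 173462_s_at became -0.0653 and mes-4 probe set 175748_s_at -0.0510 under median centring. With an array left out, the differences between the lines ran from -0.11 to 0.0434 and -0.20 to 0.0869 for the hpl-1 probe sets 175790_at and 191902_s_at, and from -0.0415 to 0.0434 and -0.0053 to 0.27 for the lin-13 probe sets 173462_s_at and 189214_s_at. They ran from -0.0551 to 0.0438 for met-2 probe set 176820_at, -0.12 to 0.23 for met-1, -0.0596 to 0.10 for mes-4 probe set 175748_s_at, -0.12 to 0.0351 for mes-2 and -0.0713 to 0.18 for mes-3 probe set 175611_at. The cause was not tested.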
